A study of Mus musculus with 56 samples.

Results

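The REV-ERB and ROR nuclear receptors were followed through the day in mouse liver under opposite feeding schedules. The genes described are Nr1d1, which encodes REV-ERBα, Nr1d2, which encodes REV-ERBβ, and Rora, which encodes RORα. They were chosen by name, with earlier results of these data known, and are 3 of the 25414 genes tested. RNA was sequenced from whole liver of 56 female C57BL/6J mice aged 9 weeks, kept under 12 h of light and 12 h of dark. For 7 days the mice could eat either in the light phase (DRF, daytime-restricted feeding) or in the dark phase (NRF, nighttime-restricted feeding, the reference). Sampling ran over zeitgeber times (ZT, counted in hours from lights on) 0, 4, 8, 12, 16, 20 and 24, with 4 mice per regimen and time. All animals therefore shared strain, sex, age, housing and food restriction, and no group fed ad libitum was analysed here. Because the tissue was bulk liver, fewer cells of a type and less RNA per cell cannot be told apart.

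REV-ERBα and REV-ERBβ are nuclear receptors that bind heme and repress transcription, mainly by recruiting the corepressor NCoR1 and the histone deacetylase HDAC3. RORα binds the same response element (RORE) and activates it. The balance of repressor and activator at the RORE is a loop of the circadian clock that times Arntl (BMAL1), Clock, Npas2, Cry1 and Nfil3. BMAL1 and CLOCK in turn drive Nr1d1 and Nr1d2 through E-boxes, and PER and CRY proteins oppose them. In liver, REV-ERBs are also known for regulating lipogenic, bile acid and gluconeogenic genes.

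Nr1d1 (ENSMUSG00000020889) lies on the minus strand of chromosome 11 from 98767932 to 98775333 (GRCm38), Nr1d2 (ENSMUSG00000021775) on the minus strand of chromosome 14 from 18204054 to 18239127, and Rora (ENSMUSG00000032238) on the plus strand of chromosome 9 from 68653786 to 69388246. All are protein-coding, with exons that span 3077, 5409 and 13071 bases in total. The bases just before the transcription start are shown because Nr1d1 and Nr1d2 moved together while Rora did not. They come from RefSeq (GRCm38.p6), cover up to 250 bases 5′ of the annotated start, stop before any annotated exon of the gene, which shortens that of Nr1d2, and run 5′ to 3′ on the gene's strand. Capitals mark AGGTCA, the core that receptors of this kind recognise, at chr14:18239178-18239183.
Nr1d1 (chr11:98775378-98775627, minus): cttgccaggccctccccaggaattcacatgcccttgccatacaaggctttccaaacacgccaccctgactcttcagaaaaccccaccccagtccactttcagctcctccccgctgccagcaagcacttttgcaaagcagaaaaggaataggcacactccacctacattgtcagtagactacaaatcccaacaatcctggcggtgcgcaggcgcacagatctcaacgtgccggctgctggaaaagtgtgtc
Nr1d2 (chr14:18239128-18239356, minus): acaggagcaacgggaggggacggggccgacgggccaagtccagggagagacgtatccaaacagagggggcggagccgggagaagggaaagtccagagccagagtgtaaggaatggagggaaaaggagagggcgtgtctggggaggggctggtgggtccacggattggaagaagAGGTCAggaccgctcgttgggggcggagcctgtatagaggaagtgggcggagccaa
Rora (chr9:68653536-68653785, plus): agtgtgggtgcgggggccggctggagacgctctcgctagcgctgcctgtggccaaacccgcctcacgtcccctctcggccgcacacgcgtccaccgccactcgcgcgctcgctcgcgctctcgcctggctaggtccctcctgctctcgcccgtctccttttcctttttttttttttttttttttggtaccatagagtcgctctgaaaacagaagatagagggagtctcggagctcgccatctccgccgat

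Both strands were searched for CACGTG (the canonical E-box), AGGTCA, TTANGTAA (a D-box, bound by DBP, TEF, HLF and NFIL3) and the RORE consensus, which contains an AGGTCA or a variant of it. Of 32851 RefSeq windows of 250 bases, 6.02% held CACGTG, 14% AGGTCA, 2.06% TTANGTAA and 0.332% the RORE consensus. Nr1d2 held a single AGGTCA, 77 bases before its start, and no other match. The windows of Nr1d1 and Rora held none of the 4 motifs, which says only that these letters are not in these windows. Among the clock genes described further on, Cry1 held an E-box 60 bases before its start, Tef an E-box before each of 2 starts (127 and 138 bases), Per3 a pair of D-boxes, and Clock and Nfil3 an AGGTCA read on the opposite strand. Some of these stretches are shown for comparison with Nr1d2, each with 6 bases on either side of the match.
Nr1d2 (chr14:18239178-18239183): aagaagAGGTCAggaccg
Nfil3 (chr13:52981046-52981051): cggaacTGACCTactaac
Clock (chr5:76303616-76303621): ggcctcTGACCTgacaga
Cry1 (chr10:85185109-85185114): ggtggtCACGTGgggtgc
Per3 (chr4:151044863-151044870): cgcgcgTTATGTAAggtact

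Levels are given as scaled counts. These are whole counts worked back from the gene values that the authors deposited, multiplied by a scale of each library, with no correction for gene length. Recovered counts summed to between 184 and 427 × 1e6 per library, and came out whole in all 56 libraries for each of the 3 genes. The hepatocyte markers Alb, Apoa1, Ttr, Hnf4a, Serpina1c and Fgb summed to 87191 to 112309 scaled counts per DRF library and 83437 to 141787 per NRF library, and all 6 were detected in the labelled tissue. Of other cell types, sums were 324 to 447 under DRF and 334 to 468 under NRF for 4 endothelial markers, 493 to 864 and 478 to 975 for 4 Kupffer cell markers, 606 to 882 and 627 to 862 for 4 stellate markers, 335 to 1244 and 265 to 765 for 2 erythroid markers, at most 9.68 for 3 cholangiocyte markers and at most 1.87 for 2 lymphocyte markers, none of them at 0 throughout. Libraries also differed in how gene length related to level. A length index, which correlates (by rank, over genes) exon length with a library's deviation from the mean library, had a median of -0.187 in the 24 libraries of ZT0 to ZT8 and of 0.120 in the 32 libraries of ZT12 to ZT24, over both regimens.

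Rhythms were examined first, to ask whether each receptor gene oscillated under each feeding regimen. All 3 genes were rhythmic under DRF, against 43.4% of all genes tested, and 2 of 3 under NRF, against 44.6%. All 3 had a mean of at least 1 scaled count. Of the 13755 such genes, tested by themselves, 8602 were rhythmic under DRF and 8469 under NRF. Nr1d1 had adjusted p-values of 1.50e-08 under DRF and 6.73e-17 under NRF in the combined rank and cosinor test (Benjamini-Hochberg over all genes). Nr1d2 had 2.62e-19 and 7.37e-19 in the same test. Rora passed it under DRF (adjusted p = 2.69e-07) and did not under NRF (adjusted p = 0.819). With the deposited values left on the authors' own scale, Rora passed under NRF too (adjusted p = 0.0109).

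The difference in rhythm between regimens was then tested itself, with limma on log2(scaled count + 1) over all 56 libraries. It passed an adjusted p of 0.05 for Nr1d1 (adjusted p = 2.07e-21) and Nr1d2 (adjusted p = 5.90e-27), 2 of 3 members against 38.8% of all genes. Of the 13755 genes with a mean of at least 1 scaled count, tested by themselves, 7844 differed. The 2 of 3 members were therefore near that background. For Rora the difference did not pass (adjusted p = 0.0851), so the pass under DRF alone does not show that the Rora rhythm differed between regimens. That value rested on single livers: without NRF ZT12 replicate 3 it was 0.0421, without NRF ZT12 replicate 4 0.0450, and without the 14 libraries numbered 3 0.0449.

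**Figure D1:**
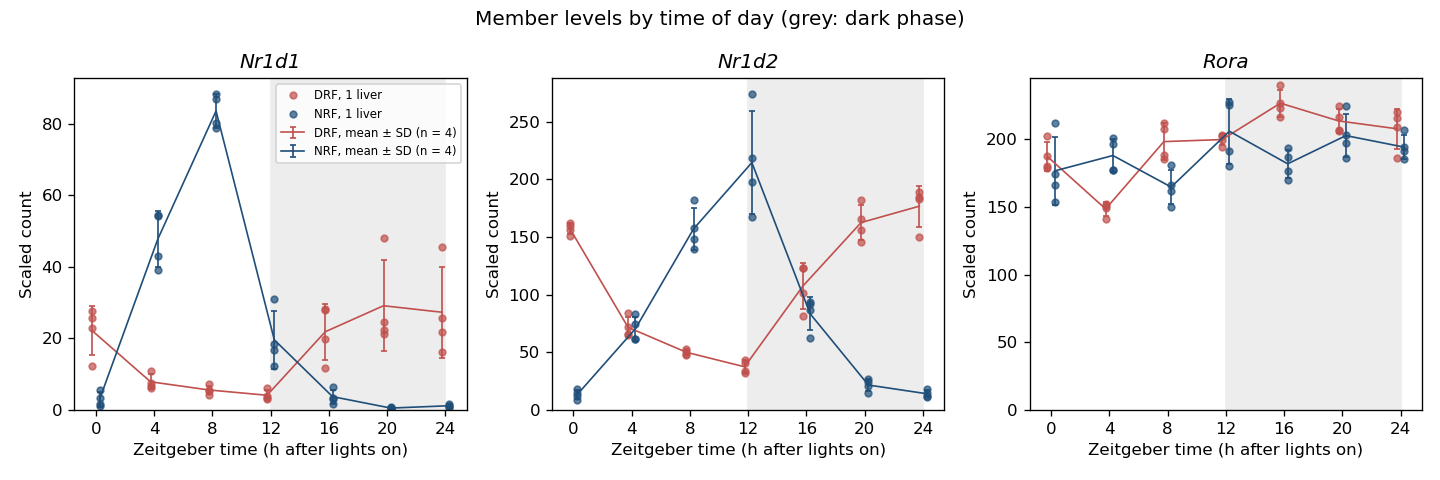
Scaled counts of Nr1d1, Nr1d2 and Rora (vertical axes, from 0) against zeitgeber time (horizontal axes, h), with 1 point per liver and lines through group means ± SD (n = 4). Under DRF the 4 highest group means of both Nr1d1 and Nr1d2 were those of ZT16 to ZT24 and ZT0, under NRF Nr1d1 was highest at ZT8 and Nr1d2 at ZT12, and all Rora livers stayed between 141 and 239.7.

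Nr1d1 fell to under 1 scaled count late in the night under NRF, and no DRF liver came near that level. Under NRF the 4 livers at ZT8 held 88.1, 86.9, 80.2 and 78.8 scaled counts, a mean of 83.5 ± 4.70 (SD, n = 4), and the 4 at ZT20 held 0.473, 0.485, 0.722 and 0.548, a mean of 0.557 ± 0.115. The group means differed 149.9-fold between these times. Under DRF the livers at ZT20 held 21.2, 48.1, 24.7 and 22.5 (29.1 ± 12.7) and those at ZT12 3.79, 3.13, 6.22 and 3.39 (4.13 ± 1.42), a 7.05-fold range. The peak mean was therefore 2.87-fold lower and the trough mean 7.42-fold higher under DRF. In the cosinor on scaled counts the amplitude was 13.8 ± 3.16 (SE) under DRF and 39.6 ± 3.25 under NRF, a difference of -25.7 (95% confidence interval -34.8 to -16.6, adjusted p = 1.37e-04). An amplitude lower under DRF was called in 8.49% of the 6918 genes rhythmic in both regimens. The Nr1d1 amplitude under NRF was 159% of the mean level of the fitted curve, and that of Nr1d2 101%. These NRF curves thus fell below 0, which no level can. The amplitudes, phases and intervals of both genes rest on such curves.

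Nr1d1 livers of the regimens did not overlap at any of the 7 times. At ZT0 the DRF livers held 27.7, 12.4, 22.8 and 25.7 and the NRF livers 1.70, 3.36, 1.20 and 5.60, and at ZT24 they held 45.6, 16.3, 21.7 and 25.6 against 1.23, 0.644, 1.21 and 1.74. Around lights on every DRF liver was thus above every NRF liver, by 6.14-fold on the fitted scale at ZT0 and 12.2-fold at ZT24. The fitted scale is log2(scaled count + 1), on which folds are compressed where levels are low. At ZT4 the order was the opposite, with 7.63, 11, 6.18 and 6.81 under DRF and 54.2, 54.6, 42.9 and 39.2 under NRF. At ZT8 the DRF livers held 5.61, 4.32, 7.21 and 5.34, all below the NRF livers given before, and at ZT12 the NRF livers held 18.6, 31, 16.7 and 12.3. The fitted level was 5.53-fold lower under DRF at ZT4, 12.9-fold at ZT8 and 3.91-fold at ZT12. At ZT16 the DRF livers, with 11.8, 19.7, 28.1 and 27.9, were again above the NRF livers, with 3.19, 3.50, 6.49 and 1.83. At ZT20 the log2 difference of DRF from NRF was 4.20 ± 0.31 (SE, adjusted p = 1.43e-13) with limma, the largest of the 7, and the others had adjusted p-values of at most 6.21e-06. Over all genes the share called was 16%, 20.4%, 13.0%, 15.2%, 15.2%, 13.7% and 14% from ZT0 to ZT24. Groups did not overlap in 19.5%, 22.3%, 18.0%, 16.2%, 15.9%, 17.5% and 16.8% of genes at these times.

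The order of the 14 Nr1d1 group means ran from NRF ZT8 and NRF ZT4 through DRF ZT20, ZT24, ZT0 and ZT16 and NRF ZT12 to DRF ZT4, ZT8 and ZT12 and then NRF ZT16, ZT0, ZT24 and ZT20. Of the 13 neighbouring pairs in that order 11 overlapped, and the gaps lay below NRF ZT8 and below NRF ZT12. The 4 DRF groups from ZT16 to ZT24 and at ZT0 could therefore not be ranked among themselves. The Nr1d1 mesor, the mean level of the fitted curve, was 15.6 ± 2.20 under DRF and 24.9 ± 2.20 under NRF, and the difference of -9.26 did not pass (adjusted p = 0.0622, 6.47% of genes called). Its sign depended on the scale, since on log2(scaled count + 1) the mesor was 0.32 higher under DRF (adjusted p = 0.251).

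Nr1d2 moved the same way as Nr1d1 and over a smaller range. Under NRF it was highest at ZT12, with 168, 198, 274 and 219 (215 ± 45, SD, n = 4), and lowest at ZT0, with 14.6, 11.8, 8.73 and 18.1 (13.3 ± 4.01). Under DRF it was highest at ZT24, with 183, 150.2, 189 and 185 (177 ± 17.9), and lowest at ZT12, with 40.8, 43.4, 33.9 and 31.9 (37.5 ± 5.46). Group means spanned 16.1-fold under NRF and 4.71-fold under DRF. As with Nr1d1, the narrower DRF range lay, as folds, mostly in the trough, whose mean was 2.82-fold higher, whereas the peak mean was 1.21-fold lower. In scaled counts the peak means of the regimens (177 and 215) lay further apart than the trough means (37.5 and 13.3), as they did for Nr1d1. The cosinor amplitude was 72.5 ± 5.80 under DRF and 95.8 ± 5.64 under NRF, and the difference of -23.2 (95% confidence interval -39.5 to -7.01) was just outside the threshold (adjusted p = 0.0533). On log2(scaled count + 1) the same difference passed, at -0.90 (adjusted p = 6.81e-07).

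At single times Nr1d2 differed between regimens at 5 of 7, and the groups of those 5 times did not overlap. The folds are again those of the fitted scale. At ZT0 the DRF livers held 159.7, 151, 162 and 156, 11.4-fold above the NRF livers, and at ZT24 the NRF livers held 18.1, 11.7, 12.4 and 14.4, 11.8-fold below DRF. At ZT8 the DRF livers held 47.9, 48.8, 52.6 and 51.1 and the NRF livers 148, 158, 182 and 139.8, and at ZT20 they held 166, 146, 156 and 182 and 24.1, 15, 26.7 and 21.1. DRF was 3.08-fold lower at ZT8, 5.55-fold lower at ZT12 and 7.33-fold higher at ZT20, and the 5 adjusted p-values were at most 9.84e-10 with limma. At ZT4, with 65.8, 83.9, 65.4 and 71.8 under DRF and 62, 83.5, 61.5 and 74.7 under NRF, the groups overlapped (adjusted p = 0.941 with limma). They also overlapped at ZT16, with 81.3, 102, 124 and 123 against 93.3, 86.6, 91.7 and 62.4 (adjusted p = 0.149 with limma). The curves of both regimens thus crossed near ZT4 and ZT16 for Nr1d2, times at which Nr1d1 differed by 5.53-fold and 4.86-fold.

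Among the 14 Nr1d2 group means 9 of 13 neighbouring pairs overlapped. The highest 5, NRF ZT12, DRF ZT24, ZT20 and ZT0 and NRF ZT8, formed an overlapping series, as did DRF ZT16, NRF ZT16, DRF ZT4 and NRF ZT4. Below these, DRF ZT8 and DRF ZT12 each stood apart from their neighbours, and NRF ZT20, ZT24 and ZT0 lay lowest and overlapped. The Nr1d2 mesor was 101 ± 4.18 under DRF and 94.8 ± 4.18 under NRF (adjusted p = 0.629). On log2(scaled count + 1), where low values weigh more, it was 0.49 higher under DRF and passed (adjusted p = 6.97e-05).

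Rora, the activator of the set, changed far less over the day. Across the 28 libraries of a regimen its coefficient of variation was 12.7% under DRF and 10.8% under NRF, against 72.5% and 133% for Nr1d1 and 50.6% and 91.8% for Nr1d2. Under DRF it was lowest at ZT4, with 141, 152, 149 and 151 (148 ± 5.05, SD, n = 4), and highest at ZT16, with 227, 216, 223 and 239.7 (226 ± 9.89), a 1.53-fold range without overlap. Under NRF the extremes were ZT8, with 166, 180.4, 162 and 149.7 (165 ± 12.7), and ZT12, with 179.7, 191, 227 and 225 (206 ± 23.9), and these overlapped by less than 1 scaled count. The fitted peak lay at ZT16.8 ± 0.646 (SE) under DRF. Under NRF it was ZT17.9 ± 1.96, a value with little meaning since that rhythm was not called. Amplitudes were 28.3 ± 5.30 under DRF, or 14.3% of the mesor, and 9.19 ± 5.35 under NRF, or 4.90%, a difference of 19.1 (95% confidence interval 3.98 to 34.2, unadjusted p = 0.0143). It has no adjusted p, because amplitude p-values were adjusted only over genes rhythmic in both regimens. The mesors of 198 and 188 scaled counts differed by 10.9 ± 5.05 (SE, adjusted p = 0.209).

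Rora differed between regimens at 3 of 7 times, each time without overlap. At ZT4 the DRF livers were below the NRF livers, which held 201, 177, 196 and 177, with a log2 difference of -0.34 ± 0.07 (SE, adjusted p = 5.43e-04) with limma. At ZT8 the DRF livers, with 185, 212, 208 and 188, were above NRF (log2 difference 0.27 ± 0.07 SE, adjusted p = 0.00923, limma), and at ZT16 they were above the NRF livers, which held 176, 170.0, 187 and 193 (log2 difference 0.32 ± 0.07 SE, adjusted p = 0.00176, limma). These are changes of 1.26-fold down, 1.20-fold up and 1.25-fold up. At the remaining times all groups overlapped: the DRF and NRF livers held 202, 179.9, 179 and 188 against 212, 166, 153 and 174 at ZT0, and 194, 203, 199 and 202 against those given before at ZT12. At ZT20 they held 224, 207, 206 and 217 against 186, 197, 224 and 203, and at ZT24 216, 186, 219.8 and 209 against 191, 185, 206 and 194. None of these 4 differences passed, with adjusted p-values of at least 0.482 with limma. All 13 neighbouring pairs in the order of the Rora group means overlapped. With the values as deposited, whose scale compresses high levels, none of the 3 calls held, with adjusted p-values of 0.183, 0.30 and 0.242 in limma at ZT4, ZT8 and ZT16. The ZT8 call was also lost without the libraries numbered 3 (0.0747) or 4 (0.111).

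Rora has long exons, and the length index of the libraries also moved over the DRF day, with group means of -0.226 at ZT4 and -0.234 at ZT8 and of 0.0452 at ZT16 and 0.153 at ZT20. With the index as a covariate, the Rora rhythm under DRF remained past the threshold in the limma F test of the 24-h terms (adjusted p = 0.0159, against 1.19e-04 without it, when 34.9% of genes passed). Under NRF the Rora rhythm did not pass this F test without the index (adjusted p = 0.328, when 43.6% of genes passed). With the index it did not pass either (adjusted p = 0.896). The differences at ZT4, ZT8 and ZT16 also passed with the covariate (adjusted p = 0.00505, 0.00317 and 6.30e-04 with limma). Nr1d1 and Nr1d2 passed all the corresponding F tests with it, with adjusted p-values of at most 6.28e-09.

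Phases were compared next, to ask how far the receptor rhythms had followed the food. Nr1d1 peaked at ZT20.6 ± 0.848 (SE) under DRF and ZT7.48 ± 0.287 under NRF, an absolute shift of 10.9 h (95% confidence interval 9.11 to 12.7). Nr1d2 peaked at ZT21.6 ± 0.317 and ZT10.6 ± 0.246, 11 h apart (10.2 to 11.8). Counted forward from NRF, the DRF peak came 13.1 h later for Nr1d1 and 11 h later for Nr1d2. The interval of Nr1d1 included 12 h and that of Nr1d2 did not. Both shifts had an adjusted p of at most 1.26e-15 over the genes rhythmic in both regimens, of which 81.3% were called.

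An exact 12-h inversion would make the regimens identical when time is counted from the start of feeding, at lights on under DRF and at lights off under NRF. Departure from it was tested with limma, as the sum of the 24-h terms of both regimens. That sum does not vanish where the amplitudes of the regimens differ, even at a shift of exactly 12 h. A departure is therefore not a measure of phase alone. From peak to trough, the log2 waves under DRF and NRF were 2.68 and 6.06 for Nr1d1 and 2.23 and 4.04 for Nr1d2. For Rora they were 0.43 and 0.14, of which the latter was not called. All 3 members departed, against 34.2% of all genes: Nr1d1 by 3.51 on the log2 scale from peak to trough of the summed wave (adjusted p = 2.96e-07), Nr1d2 by 1.94 (adjusted p = 1.98e-08) and Rora by 0.57 (adjusted p = 4.25e-04). Of the 13755 genes with a mean of at least 1 scaled count, tested by themselves, 6969 departed. For Nr1d1 and Nr1d2 the departure was smaller than the difference at equal ZT, which was 8.69 and 6.23 on the same scale. For Rora the order was the other way round, with 0.30 at equal ZT. With the length index as a covariate the Rora departure no longer passed (adjusted p = 0.119), while those of Nr1d1 (3.22e-04) and Nr1d2 (9.33e-08) did.

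**Figure D2:**
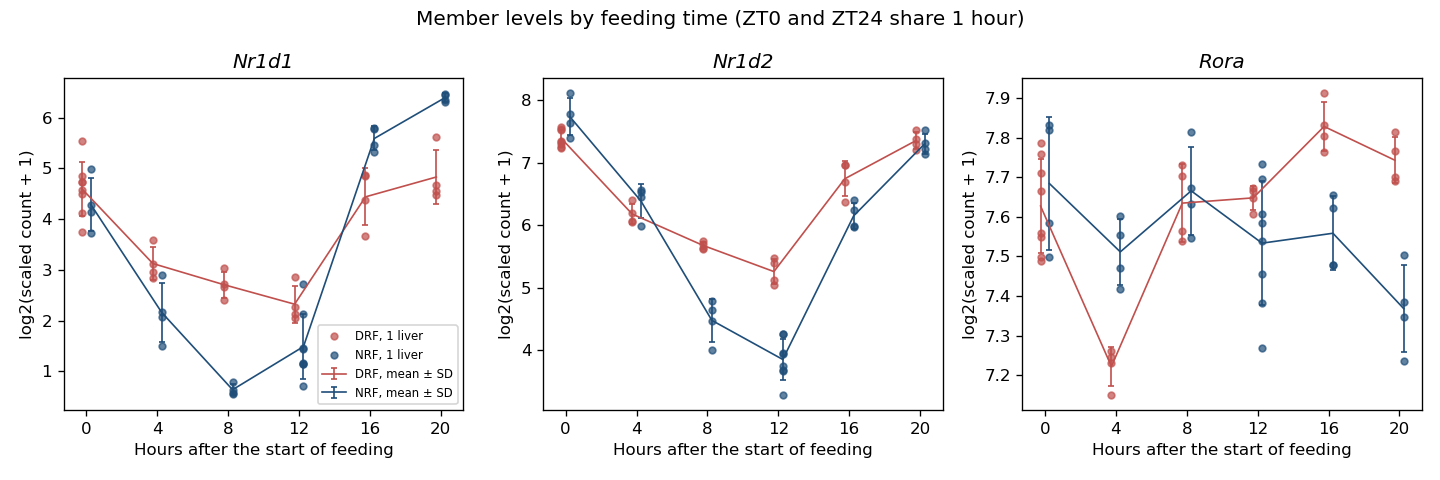
log2(scaled count + 1) of the 3 genes (vertical axes, which differ in range) against hours after the start of feeding (horizontal axes), with points for livers and lines for means ± SD over 4 livers, or 8 where ZT0 and ZT24 fall on the same hour. At 8 h every DRF liver lay above every NRF liver for Nr1d1 and Nr1d2, and at hours 16 and 20 every DRF liver lay below every NRF liver for Nr1d1.

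Levels at matched feeding hours were compared next, with folds on the fitted scale. Unlike the departure test, which uses the 24-h terms alone, they also include any difference in mean level between regimens. These contrasts regroup the same libraries as those at equal ZT and are not independent of them. They also set groups of unlike length index against each other. The mean index was lower in the DRF group at hours 4 and 8 and lower in the NRF group at hours 16 and 20. At hour 12 the mean index was 0.127 at DRF ZT12, and -0.185 and 0.183 at the joined NRF ZT0 and ZT24. From hour 0 to hour 20 the share of all genes called was 5.54%, 14.7%, 11.6%, 4.68%, 17.3% and 16.3%, and groups did not overlap in 3.01%, 15.9%, 17.1%, 3.51%, 19.8% and 21.5%. Nr1d1 differed at 4 of 6 hours. At 8 h of feeding it was 4.21-fold higher under DRF on the fitted scale (log2 difference 2.07 ± 0.31 SE, adjusted p = 3.33e-05, limma). There was no overlap between 5.61, 4.32, 7.21 and 5.34 (DRF ZT8) and 0.473, 0.485, 0.722 and 0.548 (NRF ZT20). The plain means, 5.62 and 0.557, lay further apart than 4.21-fold, because adding 1 compresses folds at levels this low. At 4 h it was 1.95-fold higher (log2 difference 0.96 ± 0.31 SE, adjusted p = 0.0297, limma), and these groups overlapped. During fasting the order turned: Nr1d1 was 2.22-fold lower under DRF at hour 16 (log2 difference -1.15 ± 0.31 SE, adjusted p = 0.00719, limma) and 2.96-fold lower at hour 20 (log2 difference -1.57 ± 0.31 SE, adjusted p = 3.47e-04, limma), in both cases without overlap. At hours 0 and 12 the differences of 0.31 and 0.84 did not pass (adjusted p = 0.630 and 0.0606 with limma). The call at 4 h was lost with the length covariate (adjusted p = 0.444) and without the libraries numbered 1, 2 or 4 (0.132, 0.120 and 0.145). Those at hours 16 and 20 were lost with the values as deposited (0.272 and 0.180), and that at hour 16 without the libraries numbered 1 (0.146).

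Nr1d2 differed at 3 of 6 feeding hours, with higher levels under DRF. Its mesor on log2(scaled count + 1) was also higher under DRF, which these differences include. It was 2.30-fold higher at 8 h (log2 difference 1.20 ± 0.17 SE, adjusted p = 1.29e-05, limma), where the lowest DRF liver held 47.9 and the highest NRF liver 26.7. It was 2.65-fold higher at 12 h (log2 difference 1.41 ± 0.14 SE, adjusted p = 1.77e-08, limma), where the lowest DRF liver held 31.9 and the highest of 8 NRF livers 18.1. At hour 16 it was 1.51-fold higher (log2 difference 0.59 ± 0.17 SE, adjusted p = 0.00921, limma) with overlapping groups, a call that was lost without the libraries numbered 3 (0.0862) or 4 (0.0730). At hours 0, 4 and 20 the log2 differences of -0.34, -0.21 and 0.05 did not pass, with adjusted p-values of at least 0.173 in limma. At hour 20, late in the fast, Nr1d2 held 163 ± 15.5 under DRF and 157 ± 18.1 under NRF (SD, n = 4), with overlapping groups, while Nr1d1 held 29.1 ± 12.7 and 83.5 ± 4.70 without overlap.

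Rora differed at 3 of 6 feeding hours. It was 1.22-fold lower under DRF at 4 h (log2 difference -0.29 ± 0.07 SE, adjusted p = 0.00589, limma), 1.21-fold higher at 16 h (log2 difference 0.27 ± 0.07 SE, adjusted p = 0.00741, limma) and 1.30-fold higher at 20 h (log2 difference 0.37 ± 0.07 SE, adjusted p = 2.80e-04, limma), each without overlap. With the length covariate the first was lost (adjusted p = 0.406) and the others passed (0.0170 and 0.0279 with limma). Without the libraries numbered 4 the calls at 4 h and 16 h were lost as well (0.0600 and 0.157). At hours 0, 8 and 12 the adjusted p-values were at least 0.348.

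**Figure D3:**
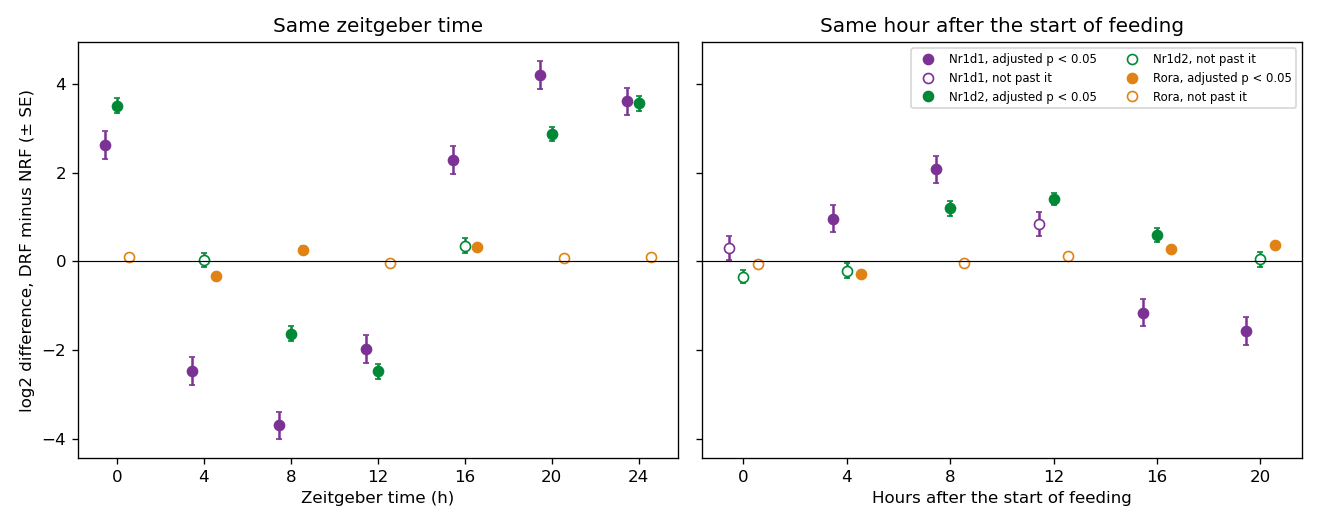
log2 difference of DRF from NRF (vertical axis, ± SE from limma) at equal zeitgeber time (left, h) and at equal hours after the start of feeding (right, h), for the 3 genes, with filled points where the adjusted p was under 0.05. The differences of Nr1d1 and Nr1d2 reached 4.20 at equal ZT and at most 2.07 at equal feeding hour, and those of Rora stayed between -0.34 and 0.37.

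ZT0 and ZT24 are the same hour of successive cycles and served as a check. No member differed between them in limma, where 3.06% of genes did under DRF and 7.81% under NRF. The log2 difference was 0.25 (adjusted p = 0.761) for Nr1d1 under DRF and -0.74 (adjusted p = 0.154) under NRF. For Nr1d2 the values were 0.16 (adjusted p = 0.690) and 0.11 (adjusted p = 0.803), and for Rora 0.15 (adjusted p = 0.284) and 0.15 (adjusted p = 0.260). With the values as deposited, the NRF differences of all 3 genes passed, with adjusted p-values of 0.0134, 0.0414 and 3.13e-04. The length index of the libraries was higher at ZT24 than at ZT0, without overlap. Its group mean went from -0.125 to 0.178 under DRF and from -0.185 to 0.183 under NRF. The index therefore did not follow the hour of day alone, and its cause was not tested.

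Lags between the members were estimated within each regimen, as a description without a test. Under NRF the Nr1d2 peak followed that of Nr1d1 by 3.08 ± 0.528 h (SE, 28 livers), and under DRF by 1.02 ± 0.540 h. The SE allows for genes of the same liver varying together. Under DRF the Rora peak came before both, with a lag of Rora after Nr1d1 of -3.76 ± 0.750 h and after Nr1d2 of -4.78 ± 0.60 h. Over the 14 group means of log2(scaled count + 1), Pearson's r was 0.82 between Nr1d1 and Nr1d2, 0.13 between Nr1d2 and Rora and -0.0034 between Nr1d1 and Rora.

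The genes whose 14 group means followed each member most closely were sought among the 13755 genes with a mean of at least 1 scaled count, as a description. For Nr1d1 the highest correlations were those of Fam151b (0.98), C77080 (0.95), Tns2 (0.93), 2410006H16Rik (0.93) and Card10 (0.92), and the lowest those of Oxnad1 (-0.92), Cry1 (-0.93) and Gca (-0.93). Cry1, the clock repressor in this last group, is itself a known RORE-driven gene. For Nr1d2 they were Cyp4f15 (0.95), Bnip3 (0.95), Mfsd1 (0.94), Acot12 (0.94) and Auh (0.94) at the top and Nelfa (-0.94), Ppard (-0.96) and Paxx (-0.97) at the bottom. Acot12 and Auh encode enzymes of acetyl-CoA and leucine metabolism, and Ppard a fatty acid-sensing nuclear receptor. For Rora they were S100pbp (0.92), Pum2 (0.92), Usp32 (0.91), Igf1r (0.90) and Casp12 (0.89) and, at the other end, Trmt2a (-0.89), H2afx (-0.91) and Srf (-0.92). None of the 8 genes named for Nr1d1 was named for Nr1d2 or Rora. The points of each correlation share libraries and the 2 regimens, and no function is implied.

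Levels were compared between genes only per kilobase of exon. On that scale the mean over 28 libraries was 5.48 scaled counts per kilobase for Nr1d1, 20.2 for Nr1d2 and 15.1 for Rora under DRF, and 7.40, 15.2 and 14.3 under NRF. Nr1d2 was the more abundant REV-ERB transcript in 13 of 14 group means. Nr1d1 made up 54.3% ± 5.18 (SD, n = 4) of the summed REV-ERB level at NRF ZT4 but 4.41% ± 0.840 at NRF ZT20, and between 16% and 25.7% on average at every time under DRF. At NRF ZT8, its peak, it made up 48.4% ± 3.27.

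The ratio of the repressor transcripts to that of Rora, (Nr1d1 + Nr1d2) over Rora per kilobase, sets both sides of the element beside each other at the transcript level. Under NRF its mean was 4.47 ± 0.271 (SD, n = 4) at ZT8 and 0.203 ± 0.0423 at ZT24, and group means spanned 22-fold. Under DRF it was 2.61 ± 0.269 at ZT24 and 0.543 ± 0.0629 at ZT12, a span of 4.81-fold. Rora exceeded the REV-ERB transcripts (a ratio under 1) in every liver at ZT0, ZT20 and ZT24 under NRF and at ZT8 and ZT12 under DRF. The REV-ERB transcripts exceeded Rora in every liver at ZT4, ZT8 and ZT12 under NRF and at ZT0, ZT4, ZT16, ZT20 and ZT24 under DRF. At NRF ZT16 the ratio lay between 0.820 and 1.35. The ratio was composed after the values were known and carries no test, and it says nothing of protein. Where it crosses 1 depends on the Rora level per kilobase of all its exons. That level is uncertain, since the transcript Rora-201 came out at 7.42 times its gene.

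**Figure D4:**
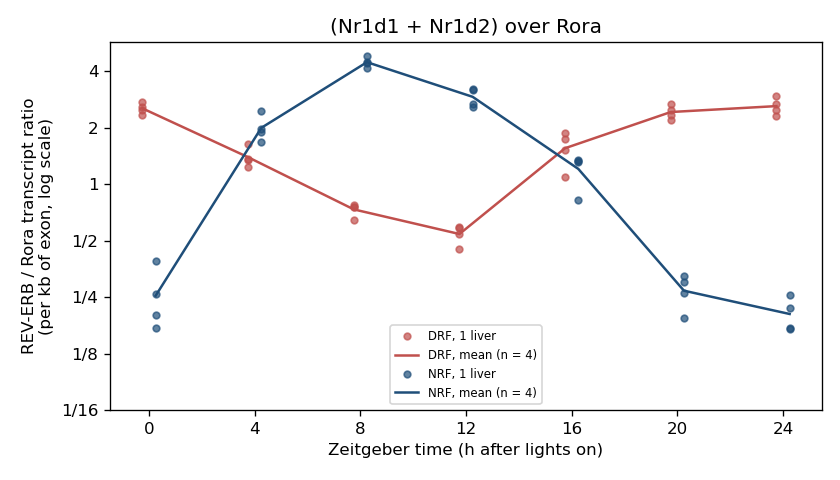
Ratio of summed REV-ERB (Nr1d1 and Nr1d2) to Rora levels per kilobase of exon (vertical axis, log scale) against zeitgeber time (horizontal axis, h), with 1 point per liver and lines through means of 4. The ratio ran between 0.168 and 4.82 under NRF and between 0.453 and 2.95 under DRF.

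Clock genes known to be driven through ROREs were examined next. All 5 of the list (Arntl, Clock, Npas2, Cry1 and Nfil3) were rhythmic in both regimens, against 27.2% of all genes. All 5 differed in rhythm between regimens and all 5 departed from an exact inversion in limma, against 38.8% and 34.2% of all genes, with a median shift of 10.5 h, against 7.95 h over all genes rhythmic in both. Each of the 5 had a mean of at least 1 scaled count. Of the 13755 such genes, tested by themselves, 5869 were rhythmic in both, 7844 differed and 6969 departed. Under NRF the peaks ran from Cry1 at ZT19.5 ± 0.232 h (SE) to Clock at ZT22.4 ± 0.437, Nfil3 at ZT22.5 ± 0.275, Arntl at ZT22.7 ± 0.185 and Npas2 at ZT0.397 ± 0.349. The 3 lowest group means of Nr1d1 and Nr1d2 under NRF, at ZT20, ZT24 and ZT0, fell among these times. Under DRF the peaks ran from Cry1 at ZT9.02 ± 0.362 to Nfil3 at ZT12.1 ± 0.357, Arntl at ZT12.1 ± 0.260, Npas2 at ZT13.3 ± 0.919 and Clock at ZT14.9 ± 0.420. The 3 lowest group means of both receptor genes under DRF were those of ZT4, ZT8 and ZT12, of which ZT12 fell among these peaks and ZT4 and ZT8 came before all of them. Clock shifted least, by 7.46 ± 0.606 h, and Npas2 most, by 11.1 ± 0.983 h.

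Amplitude was lower under DRF in 3 of these 5 genes, against 8.49% of all genes rhythmic in both. Arntl, the partner of CLOCK, had an amplitude of 29.4 under DRF and 40.8 under NRF (adjusted p = 0.00162), Cry1 of 54 under DRF and 80.1 under NRF (adjusted p = 0.0144) and Npas2, a CLOCK paralogue, of 1.47 under DRF and 3.92 under NRF (adjusted p = 2.11e-04). For Nfil3, a bZIP repressor, the values were 20.7 under DRF and 26.5 under NRF (adjusted p = 0.122) and for Clock 39.6 under DRF and 39.5 under NRF (adjusted p = 0.996), and neither passed. Nr1d1 thus had the lower DRF amplitude, in scaled counts, in common with Arntl, Cry1 and Npas2. The mean level was also lower under DRF for Arntl (32.2 against 45.3), Cry1 (72.9 against 89.5) and Npas2 (1.29 against 3.28). Whether their amplitude differed relative to level was not tested. For Nr1d1 the amplitude was 88.4% of the mesor under DRF and 159% under NRF.

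The wider clock list (15 genes that include Arntl, Clock, Npas2, Cry1 and Nfil3) was rhythmic in both regimens and differed between them throughout, 15 of 15, and 12 departed from an exact inversion. The shares over all genes were 27.2%, 38.8% and 34.2%. Of the 15 genes 13 had a mean of at least 1 scaled count. Of the 13755 such genes, tested by themselves, 5869 were rhythmic in both, 7844 differed and 6969 departed. Shifts lay between 7.46 and 11.9 h with a median of 10.8 h, and 14 were of at least 8 h, against 49.6% of all genes rhythmic in both. The smallest adjusted p-values of the difference were those of Dbp, Cry1, Tef and Per3. Dbp and Tef, PAR bZIP activators of D-boxes, peaked at ZT24 and ZT0.446 under DRF and ZT10.2 and ZT12.6 under NRF. Per3 peaked at ZT1.37 and ZT12.5. Amplitude was lower under DRF in 5 of 15, against 8.49% of all genes rhythmic in both, and higher in 0 of 15.

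Cofactors of the receptors were examined as a further list. Of 9 genes, 6 were rhythmic in both regimens, 1 under DRF alone and 2 under NRF alone, 7 differed in rhythm and 3 departed from inversion. Of all genes 27.2% were rhythmic in both, 38.8% differed in rhythm and 34.2% departed, so the departures among cofactors were near that share. All 9 cofactors had a mean of at least 1 scaled count. Of the 13755 such genes, tested by themselves, 5869 were rhythmic in both, 7844 differed and 6969 departed. The cofactors had a median rhythm difference of 0.77 on the log2 scale against 0.27 over all genes. Ppargc1b and Ppargc1a, coactivators of mitochondrial and fasting genes, peaked at ZT21.9 and ZT21.3 under DRF, close to Nr1d2, and at ZT9.96 and ZT10.9 under NRF. Tbl1x, a subunit of the NCoR complex, peaked at ZT10 and ZT19.3. Ncoa2, a coactivator of nuclear receptors, peaked at ZT20.2 and ZT8.19, with a tested difference at an adjusted p of 5.16e-05 in limma.

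Genes for turnover of REV-ERB proteins, mostly ubiquitin ligase components, were 3 of 6 rhythmic in both regimens, 3 of 6 different in rhythm and 5 of 6 departing from inversion, against 27.2%, 38.8% and 34.2% of all genes. All 6 had a mean of at least 1 scaled count. Of the 13755 such genes 7844 differed in rhythm, so the 3 that differed were not above that background. Mycbp2, a ubiquitin ligase, peaked at ZT0.742 under DRF and ZT17.4 under NRF, and Spsb4 at ZT4.79 and ZT22.1. Siah2, another ligase, was rhythmic under DRF (adjusted p = 1.66e-07) and not under NRF (1), with a tested difference at an adjusted p of 0.00539 in limma. For Fbxw7 the difference did not pass (0.0699 in limma).

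Metabolic genes linked to REV-ERB or ROR in liver were mostly rhythmic. Of 18 genes, 14 were rhythmic in both regimens, 16 differed in rhythm and 9 departed from inversion, and 10 of the 14 shifted by at least 8 h. The shares over all genes were 27.2%, 38.8% and 34.2%, and 49.6% of those rhythmic in both shifted as far. Of the 18 genes 16 had a mean of at least 1 scaled count, and 6969 of the 13755 such genes departed. The 9 that departed were therefore near that background. Shifts ran from 0.603 to 12 h. Avpr1a, a vasopressin receptor gene, peaked at ZT12.4 under DRF and ZT0.171 under NRF, near Arntl. Srebf1 and Elovl6, a regulator and an enzyme of fatty acid synthesis, peaked at ZT6.50 and ZT6.76 under DRF and ZT18.1 and ZT18.5 under NRF. Insig2, which retains SREBP in the endoplasmic reticulum, shifted by 7.83 ± 0.625 h (SE). Amplitude differed in 0 of the 14 genes rhythmic in both, where 10.7% of all such genes were called.

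**Figure D5:**
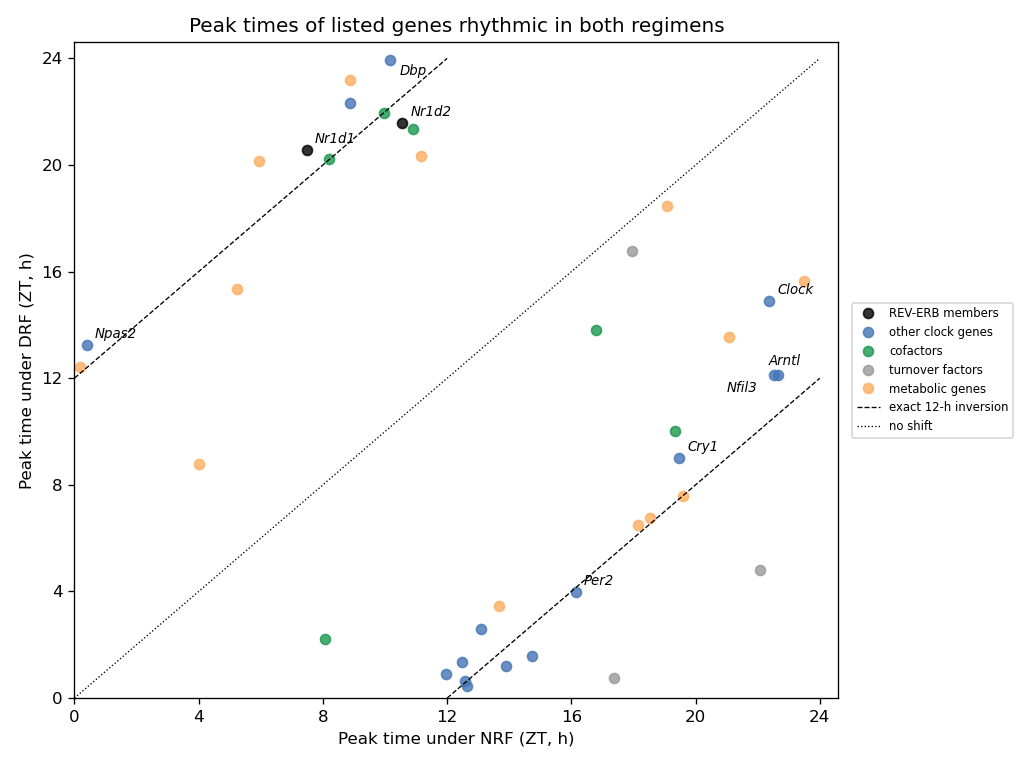
Cosinor peak time under DRF (vertical axis, ZT, h) against peak time under NRF (horizontal axis, ZT, h) for listed genes rhythmic in both regimens, 1 point per gene, with lines for an exact 12-h inversion (dashed) and for no shift (dotted). Nr1d1 and Nr1d2 sit on either side of the dashed line, and Clock, shifted by 7.46 h, sits far from it.

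Some reads of the members may belong to neighbours. Thra, the thyroid receptor α gene on the opposite strand, shares 263 exon bases with Nr1d1 (8.55% of its exon bases), and Gm15511, an antisense gene, shares 82 with Rora (0.63%). The protocol kept strand, but whether counting used it is not given in the sources used here, so such reads are uncertain. Thra itself ranged from 2.23 to 7.27 scaled counts, was not rhythmic under DRF (adjusted p = 0.907) and peaked at ZT4.27 under NRF (adjusted p = 1.55e-15). Nr1d1 fell below the lowest Thra value in 11 of 56 livers. Gm15511 ranged from 1.71 to 4.89, far under Rora.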

How the data were processed

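Liver RNA of 56 mice was sequenced in 14 groups of 4. Per the labels, ribosomal RNA was depleted and libraries were strand-specific and paired-end, while the molecule field names polyA RNA. The submitters' processing notes name CASAVA 1.8, featureCounts 1.5.0-p3 and the builds mm10 and GRCm38.p6. The aligner and the use of strand are not given in the sources used here. The authors deposited gene values named TPM, treated here as a score, because each value times exon length equals a logarithm, a·ln(1 + f·k), of a whole count k. Constants a and f of each library came from part of the genes, and in the rest 99.2% of values up to 10 counts and 96.7% of those from 1000 to 20000 counts were whole to 0.05. For 85 genes counts were too high to judge. Scaled counts are f·k, on 25414 of 25415 genes. Of 24268 Ensembl identifiers, 24223 matched GENCODE. A transcript table was used for the members alone, and a table of circular RNAs was not used here. The 56 columns of each table used were assigned by name.

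Rhythm within a regimen was tested by a Kendall rank test against 12 cosine templates of 24 h, combined by Fisher's method with a cosinor F test (SciPy 1.17.1), in place of the study's MetaCycle. Cosinor phase, amplitude and mesor were fitted on scaled counts with 50 residual degrees of freedom. Differences were tested with limma 3.58.1 (R 4.3.3) on log2(scaled count + 1) over all 56 libraries, with Benjamini-Hochberg adjustment over all genes, or over genes rhythmic in both regimens for phase and amplitude, and a threshold of 0.05. No count model was used. The procedures were tested on simulated data. Groups came from the labels. In contrasts between groups p-values measure the spread between mice. In the cosinor and the tests of 24-h terms, the spread also includes misfit of the fitted wave. Named genes were the 3 members, all genes of the RORE list, at most 4 of each other list by the smallest adjusted p of the rhythm difference, and per member the 5 highest and 3 lowest correlations. Some list genes are not reported here. The members and lists were chosen with earlier results of these data known. Alternatives changed the values, scaling, filter, pseudocount, test, times, replicates, replicate block and length covariate. The limma F test of the 24-h terms within a regimen and the spread within each regimen were added after seeing the data.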

Additional observations from a re-analysis of the deposited data

Results flagged for a closer look

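A liver stood apart from the other 3 of its group in 2 of 42 groups of 4 livers (3 genes in 14 groups), when chance gives about 1 in 20. For Nr1d1 at DRF ZT20 replicate 2 held 48.1 scaled counts and the others 21.2 to 24.7, a gap of 0.872 of the range. For Nr1d2 at DRF ZT24 replicate 2 held 150.2 and the others 183 to 189, a gap of 0.856 of the range. These are different livers, and leaving out either did not change the call of the rhythm difference or of the departure from inversion.

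The rhythm under DRF differed from that under NRF by a test of the difference for Nr1d1 (adjusted p = 2.07e-21, limma) and Nr1d2 (adjusted p = 5.90e-27, limma).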

How the results depend on the processing

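Of the alternative values computed for the members, 332 for Nr1d1, 337 for Nr1d2 and 305 for Rora kept their direction and their side of the threshold. In the same order, 7, 2 and 9 no longer passed, 8, 7 and 7 passed where the reported value did not, and 2, 3 and 6 reversed. The cause of the changes was not tested, except that leaving out libraries lowers the number of samples. With the values as deposited, the mesor difference of Nr1d1 turned to 5.03 (adjusted p = 0.151) and that of Nr1d2 was 4.10 (adjusted p = 9.34e-05), the amplitude difference of Nr1d2 was -5.47 (adjusted p = 1.58e-04) and the Nr1d1 differences at feeding hours 12, 16 and 20 were 0.73 (adjusted p = 0.00259), -0.28 (adjusted p = 0.272) and -0.34 (adjusted p = 0.180). ZT24 minus ZT0 under NRF was -0.56 (adjusted p = 0.0134) for Nr1d1, 0.14 (adjusted p = 0.0414) for Nr1d2 and 0.13 (adjusted p = 3.13e-04) for Rora, and 0.0836 (adjusted p = 0.0365) for Rora under DRF. Rora then had an adjusted p of 0.0109 for rhythm under NRF, log2 differences of -0.0505, 0.0469, 0.0212 and 0.0474 at ZT4, ZT8, ZT12 and ZT16 and of 0.00615 at feeding hour 0. With the length index as a covariate, Nr1d1 at hour 4 was 0.73 (adjusted p = 0.444) and at hour 12 0.92 (adjusted p = 0.0378), Nr1d2 at hour 20 -0.0256 (adjusted p = 0.963), and Rora at hours 4 and 8 -0.18 (adjusted p = 0.406) and 0.0774 (adjusted p = 0.718), and the Rora departure from inversion had an adjusted p of 0.119. With genes of a mean of at least 1 scaled count alone, the Nr1d1 mesor difference was -9.26 (adjusted p = 0.0433), its hour-12 difference 0.84 (adjusted p = 0.0387) and the Nr1d2 amplitude difference -23.2 (adjusted p = 0.0491). Without ZT24 the first was -11.2 (adjusted p = 0.0318) and the last -30.5 (adjusted p = 0.0242). On log2(scaled count + 1) the mesor differences of Nr1d1 and Nr1d2 were 0.32 (adjusted p = 0.251) and 0.49 (adjusted p = 6.97e-05) and the Nr1d2 amplitude difference -0.90 (adjusted p = 6.81e-07). Nr1d1 at hour 12 was 1.18 (adjusted p = 0.0224) with a pseudocount of 0.1 and 1.20 (adjusted p = 0.0326) against NRF ZT24 alone, and Rora at hour 0 was 0.0172 with DRF ZT24 alone.

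Leaving out the libraries of each replicate number in turn gave log2 differences of 0.80 to 1.31 for Nr1d1 at feeding hour 4 and -1.38 to -0.83 at hour 16, 0.46 to 0.70 for Nr1d2 at hour 16, -0.0587 to 0.14 at hour 20 and -0.00941 to 0.25 for its ZT24 minus ZT0 under NRF. For Rora the ranges were 0.24 to 0.30 at ZT8, -0.0845 to 0.0138 at ZT12, -0.33 to -0.27 at hour 4, 0.21 to 0.30 at hour 16 and 0.0520 to 0.24 for ZT24 minus ZT0 under NRF, and its rhythm difference had adjusted p-values from 0.0421 (1 library left out) to 0.50. The numbers do not pair the animals: deviations of libraries with the same number in different groups correlated at a mean of 0.00424, against -0.0014 for other numbers, and 17 of 56 libraries correlated best with their own number. The replicate block changed no call of a member, and the Nr1d1 rhythm difference had an adjusted p of 3.98e-20 with it.

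Counts over all genes moved more. With the length covariate, 5000 genes departed from inversion (8700 without it), and 193, 528, 1967 and 2661 were called at feeding hours 4, 8, 12 and 20 (3729, 2946, 1190 and 4152 without it), and 14 and 2 between ZT24 and ZT0 under DRF and NRF. With the values as deposited, 932 were called at hour 0 and 1842 and 6056 between ZT24 and ZT0 (on scaled counts 1409, 778 and 1986). By the rank test alone 4471 were rhythmic in both regimens. Without 1 replicate number, the counts were 3259 to 4757 at ZT4, 1976 to 2568 at ZT8, 2471 to 3213 at ZT12, 2249 to 3075 at ZT16, 2263 to 2664 at ZT20 and 2235 to 2902 at ZT24, and at feeding hours 0 to 20 they were 662 to 1301, 1478 to 2693, 1127 to 2002, 318 to 818, 2148 to 3411 and 2283 to 3300. They were 119 to 596 and 160 to 2630 between ZT24 and ZT0, 700 to 1224 for the mesor and 283 to 405 for the amplitude. Low values limit Nr1d1 at its NRF trough, where livers held under 1 scaled count, and the recovered counts carry no counting interval, because their totals exceed the sequencing depth that the study states.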

Other observations

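Transcript values of the members are less certain than gene values, since between 38.8% and 41.5% of values were within 2% of the gene curve where a gene has 1 transcript. Nr1d1-201, the protein-coding transcript of 2721 bases, had a median of 12.9 scaled counts over 56 libraries, and the processed transcript Nr1d1-202 had 0.0309. Nr1d2-201, the protein-coding transcript of 4663 bases, had a median of 76.2, and Nr1d2-202, a retained intron of 1680 bases, had 4.78, with a range of 0.0765 to 23.3. The medians of Nr1d2-203 and Nr1d2-204 were 0.553 and 0.750, and Nr1d2-204 was listed at 0 in 20 libraries. Rora transcripts were not used, because the value of Rora-201 came out 7.42 times that of its gene.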
